A study of Rangifer tarandus with 4 samples.

Results

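The oligoadenylate synthetase (OAS) family was described from its gene models in the cattle (Bos taurus) annotation that accompanies single-cell RNA libraries of reindeer blood. Its members were all genes whose symbol begins with OAS followed by a digit or by L. The rule took 5 of 21880 genes: OAS1X, OAS1Y, OAS1Z, OAS2 and OASL. The symbol OAS3 was not matched and is not analysed here. The series profiled mononuclear blood cells of reindeer (Rangifer tarandus) 3 days after a wound, with 2 libraries from the distal antler velvet (antler) and 2 from the saphenous vein (back). About 12000 cells were loaded per library, and the labels give no genotype, age or agent for either group. Counts of cells or molecules were not analysed here. Expression levels, depth and the contrast of antler with back are therefore absent from what follows, and the annotation's values are positions that carry no replicate error. All coordinates count from 1 on the cattle assembly ARS-UCD1.2 and are not reindeer coordinates.

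OAS enzymes are induced by interferon and bind double-stranded RNA, an intermediate of virus replication. The bound enzyme joins ATP into short oligoadenylates with an unusual linkage, and these act as a signal that leads to the decay of viral and cellular RNA. In mammals, OAS1 proteins hold a single synthetase unit, OAS2 holds a pair of them in tandem, and the OAS-like protein OASL, which in humans makes no oligoadenylate, acts in antiviral signalling through other partners. The antler and back libraries were read from the 3′ end of transcripts, so the part of each gene model after the stop codon, the 3′ untranslated region (UTR), is the part described most closely here.

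All 5 genes lay on the minus strand of chromosome 17, in 2 places. OAS2, OAS1Y, OAS1X and OAS1Z stood side by side in that order of coordinates, with 0 other genes between them, and the group extended over 64437 bases from 61338202 to 61402638. OASL lay apart, 1793032 bases beyond OAS1Z, with 37 genes in between. Because the genes are transcribed from high to low coordinates, OAS1Z is the most upstream of the group of 4 and OAS2 the most downstream. Each gene of the group therefore pointed at the start of the next one.

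OAS2 (ENSBTAG00000014628), the synthetase with tandem units, ran from 61338202 to 61357849. OAS1Y (ENSBTAG00000039861) ran from 61363053 to 61371004, 5203 bases away from OAS2. OAS1X (ENSBTAG00000053807) ran from 61376225 to 61385129 and was separated from OAS1Y by 5220 bases. OAS1Z (ENSBTAG00000037527) ran from 61394801 to 61402638, at 9671 bases from OAS1X. These are 3 copies of the single-unit gene OAS1, and the 2 gaps next to OAS1Y were nearly equal while that between OAS1X and OAS1Z was wider. OASL (ENSBTAG00000003297) ran from 63195671 to 63211740.

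**Figure D1:**
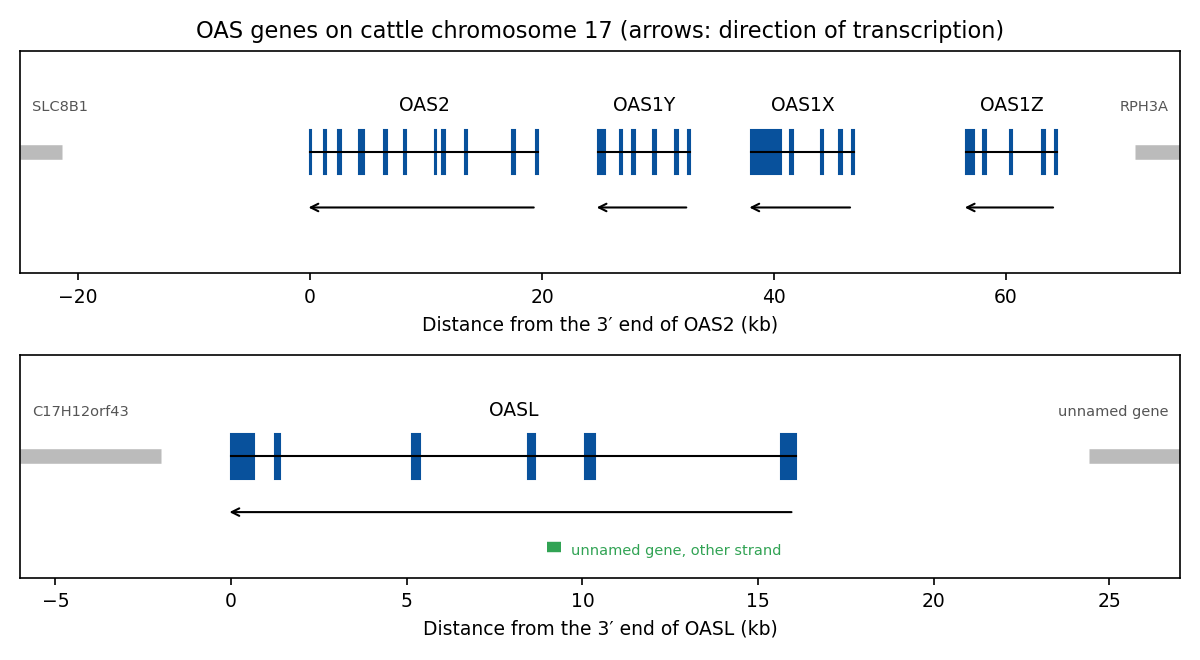
Exons of the 4 neighbouring OAS genes (upper panel) and of OASL (lower panel), drawn to scale against the distance in kilobases from the 3′ end of OAS2 or OASL. Blue boxes are exons of the transcript with the longest coding sequence, arrows give the direction of transcription, grey bars are the nearest genes on either side, and the green bar is the unnamed gene inside an intron of OASL; all 5 OAS arrows point to the left.

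The group of 4 was flanked by SLC8B1, a mitochondrial sodium-calcium exchanger, 21437 bases beyond the 3′ end of OAS2, and by RPH3A, which encodes the synaptic vesicle protein rabphilin, 6667 bases upstream of OAS1Z. Both are also on the minus strand. With the phosphatase gene PTPN11, which follows RPH3A, they made an unbroken run of 7 genes on 1 strand, and 10.8% of the 21880 genes stood in runs of at least that length. OASL was followed after 2005 bases by C17H12orf43 on the same strand and preceded at 8346 bases by the unnamed gene ENSBTAG00000051177.

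The distance from the 3′ end of a gene to the next gene on its strand differed between the members. It was 2005 bases for OASL, 5203 for OAS1Y, 5220 for OAS1X, 9671 for OAS1Z and 21437 for OAS2. The median over 16768 named genes with such a neighbour was 48546 bases, and all 5 OAS genes lay below it. Of those named genes, 4.71% had a shorter distance than OASL and 11.2% than OAS1Y or OAS1X. The share was 19.3% for OAS1Z and 32.8% for OAS2. For the OAS1 copies the next gene was another OAS gene. No OAS gene shared an exon base with another gene on either strand. OASL was the only member overlapped by another gene: the single-exon gene ENSBTAG00000046887 lay on the plus strand from 63204673 to 63205053, inside intron 2 of OASL, which measured 1423 bases.

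The 3 OAS1 copies were close in coding length, and OAS2, with its further set of coding exons, was the longest member. OAS1X had 1056 coding bases (352 codons, stop codon not counted) in 5 exons. OAS1Z had 1086 coding bases (362 codons) in 5 exons. OAS1Y had 1167 coding bases (389 codons) in 6 exons. The copies also differed in their number of exons. OAS2 had 2142 coding bases (714 codons) in 12 exons. OASL had 1056 coding bases in 6 exons, the same total as OAS1X with another division into exons. The median over 16808 named protein-coding genes was 1344 bases in 8 exons; only OAS2 lay above it in either measure, and 75.3% of named genes had a shorter coding sequence than OAS2.

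The 3 copies of OAS1 had identical lengths in coding exons 2, 3 and 4, with 289, 185 and 233 bases. The first coding exon differed by whole codons, with 174 coding bases in OAS1X, 177 in OAS1Y and 180 in OAS1Z. In OAS1Y exon 5, of 154 bases, was followed by exon 6 with 129 coding bases. In OAS1X and OAS1Z exon 5 was the last, and it held 175 and 199 coding bases before the stop codon. In human OAS1, isoforms are likewise known to differ in their last coding exon. Each of the cattle copies had a single annotated transcript, so which of these ends the genes share as isoforms was not seen in the annotation.

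Among the 10 pairs of family members, the 3 pairs within OAS1 had a run of 3 equal coding exon lengths. The pair OAS2 and OAS1Y shared 1 length, the 177 bases of the first exon, and the other 6 pairs shared none. Runs of 3 equal exon lengths therefore joined the OAS1 copies only.

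The pattern that all 5 genes had in common was the place of their introns within codons. The phase of an intron is the number of codon bases that precede it, from 0 to 2. The first 4 introns had the phases 0, 1, 0 and 2 in every OAS gene. Across the family, coding exon 2 measured 277 bases in OAS2, 289 in the OAS1 copies and 292 in OASL, and each of these leaves a remainder of 1 when divided by 3. Exon 3 measured 179, 185 and 176 bases in the same order, and exon 4 measured 236, 233 and 242 bases; both leave a remainder of 2. These remainders follow from the shared phases and are no further trait. Exons 2, 3 and 4 thus differed in length between OAS1, OAS2 and OASL by whole codons. Among 13169 other protein-coding genes with at least 4 coding introns in 1 transcript, 180 began with these phases (1.37%), and 1615 (12.3%) held them somewhere in a row.

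OAS2 came back to the pattern only once 2 of its exons were taken as 1. As annotated, the introns after exons 6 to 10 had the phases 0, 1, 2, 0 and 2 in its longer transcript. In its shorter transcript they were 0, 1, 1, 2 and 2. Exons 6 and 7 of OAS2 measured 171 and 283 bases. Exons 8 and 9, with 184 and 7 bases, came to 191 bases when added, and exons 10 and 11 measured 239 and 160 bases. With exons 8 and 9 taken as 1 exon, a step chosen after their lengths were seen, the phases 0, 1, 0 and 2 came back in the longer of its 2 transcripts. In the shorter one the same step gave 142 bases and the phases 0, 1, 2 and 2, so the pattern did not return there. Exon 5, which closes the first set, measured 142 bases in OAS2, 154 in OAS1Y and 148 in OASL.

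**Figure D2:**
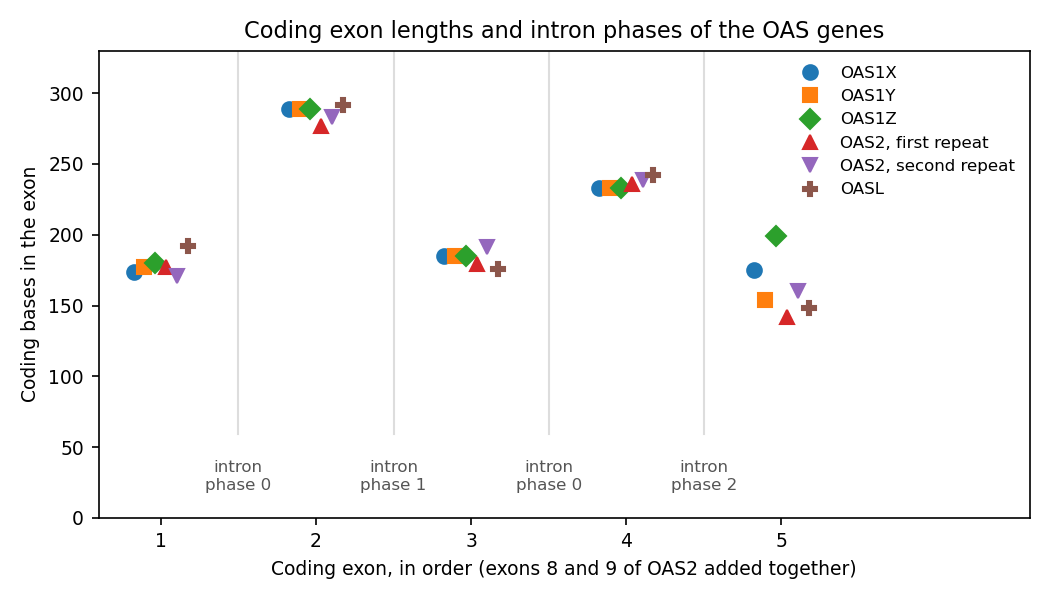
Coding bases per exon (vertical axis) for the first 5 coding exons of each OAS gene and for exons 6 to 11 of OAS2 (second repeat, longer transcript, with exons 8 and 9 added together); grey text gives the intron phase after each exon. The points of an exon position lie close together, from 277 to 292 bases at position 2 and from 233 to 242 bases at position 4, and spread most at position 5, which is the last coding exon in OAS1X and OAS1Z.

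No gene outside the family shared a run of 3 internal coding exon lengths with an OAS gene, among 21856 protein-coding genes searched. A run of 3 internal lengths, or of 4 phases, needs at least 4 coding introns in 1 transcript. Only 13169 of the 21856 genes had that many, so the others could not have matched. In a second search, chosen after the pattern was seen, the phases were kept and the 3 internal lengths could lie up to 20 bases outside the range of the OAS genes; it found 0 other genes, named or unnamed. That search was set from the OAS genes, so that it returned all 5 of them follows from its construction.

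The first 4 introns varied more in length between the genes than the first 4 coding exons. Intron 1 of the OAS1 copies measured 811 bases in OAS1X, 810 in OAS1Y and 792 in OAS1Z, against 1774 in OAS2 and 5309 in OASL. Intron 4 was also similar among the copies, with 798, 859 and 816 bases in the order X, Y, Z. Introns 2 and 3 were not: intron 2 measured 1387, 1660 and 2553 bases in that order, and intron 3 measured 2389, 1601 and 2093 bases. Introns made up 60.5% of the span of OAS1X, 78.7% of OAS1Y, 79.8% of OAS1Z, 89.1% of OAS2 and 88.0% of OASL.

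A 3′ UTR was annotated for 4 of the 5 genes, and 79.8% of the 16808 named protein-coding genes and 65.5% of all 21861 protein-coding genes had one, so the family's count stood near the background. The lengths set the members apart from each other. OAS1X had 2422 bases, more than 94.0% of the 13409 named genes with a 3′ UTR. OASL had 650 bases, next to their median of 649. OAS1Y had 450 bases and OAS1Z 436 bases, longer than 37.5% and 36.5% of those genes. OAS2 had none. The nearly equal values of OAS1Y and OAS1Z thus stood well under that of their neighbour OAS1X, which is placed between them.

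**Figure D3:**
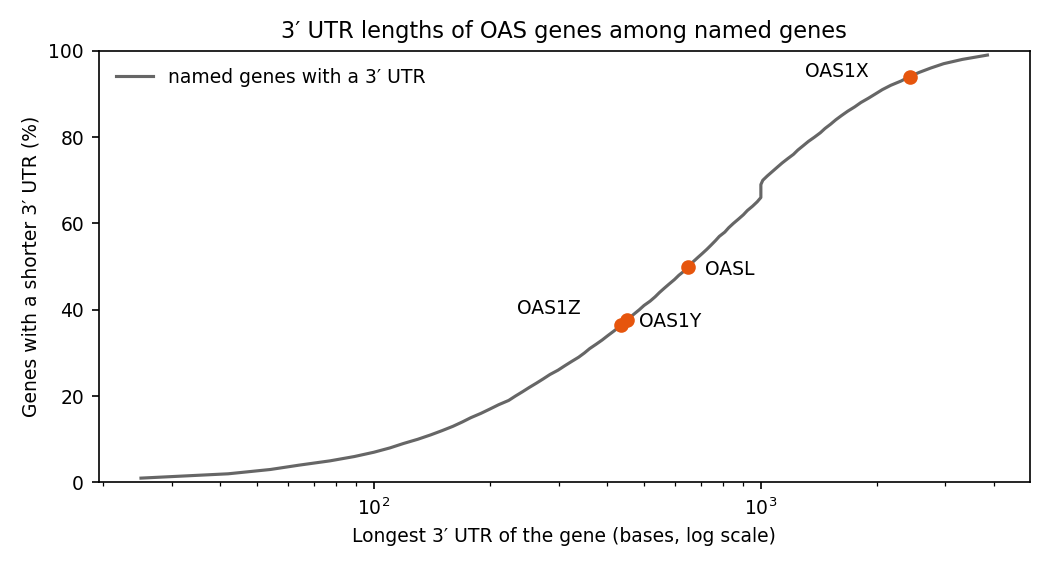
Share of the 13409 named genes with a 3′ UTR that have a shorter one (vertical axis, percent) against its length in bases (log scale), with the 4 OAS genes that have a 3′ UTR as points. OAS1Y and OAS1Z lie together below the middle of the curve, OASL at the middle and OAS1X near its upper end. The curve stands at 1000 bases from 66% to 69% of the genes, and why so many share that length was not tested.

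In OAS1X the 3′ UTR made up 68.8% of the spliced transcript of 3520 bases, a larger part than in 95.9% of named genes. It was 33.8% of 1922 bases in OASL, 27.5% of 1584 bases in OAS1Z and 26.6% of 1691 bases in OAS1Y. All 4 were unbroken, with 1 segment in the last exon. That is the usual state: in 780 of 16808 named genes (4.64%) the longest 3′ UTR lay in more than 1 segment. The last exon of OASL held just 6 coding bases before the stop codon, so nearly all of its 659 bases were stop codon and 3′ UTR. The 5′ UTR measured 213 bases in OASL, 71 in OAS1Y, 59 in OAS1Z and 39 in OAS1X. The median over named genes that had one was 211 bases, close to OASL and above the OAS1 copies.

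OAS2 had neither a 5′ nor a 3′ UTR: both of its transcripts began with coding sequence at 61357849 and ended with the stop codon at 61338202. Start codon records were not read, so whether the models begin at a start codon was not checked. Genes without a UTR at either end made up 12.7% of named genes (2136 of 16808). OAS2 was also the only member with more than 1 transcript. Its 2 transcripts had 12 exons each and shared 9 of them exactly. They differed in exons 8, 9 and 10, which measured 184, 7 and 239 bases in the longer and 132, 10 and 177 bases in the shorter transcript. The shorter one had 2031 coding bases (677 codons), 111 bases or 37 codons fewer, and its intron 8 measured 57 bases. An internal coding exon of at most 10 bases occurred in 159 named genes (0.946%), and an intron of under 70 bases in 1096 (6.52%). The short exons thus fell in the later set of OAS2. With exons 8 and 9 taken as 1, that is the place of exon 3 of the other family members.

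**Figure D4:**
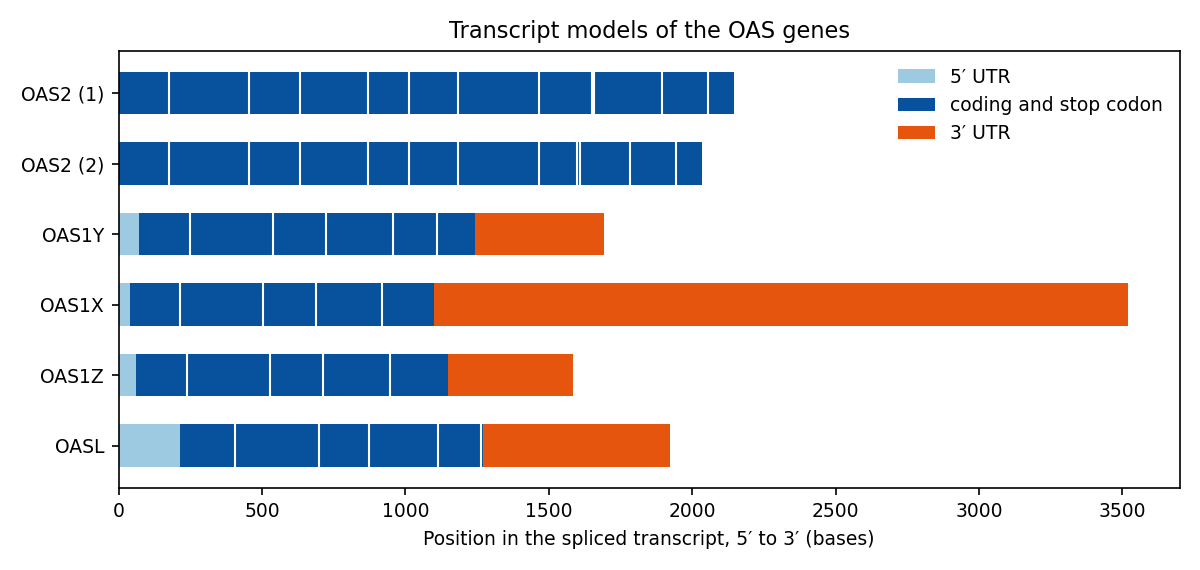
Spliced transcript models of the 5 OAS genes in bases from the 5′ end, with the 5′ UTR in light blue, coding sequence and stop codon in dark blue and the 3′ UTR in orange; white lines are exon boundaries. OAS2 (1) and (2) are its longer and shorter transcript and have no UTR, and the 3′ UTR of OAS1X, 2422 bases, is longer than its coding sequence.

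The last 500 bases of each spliced transcript, a window chosen after the lengths were seen, differed in content accordingly. In OAS1X and OASL all 500 bases were 3′ UTR, as in 41.1% of 16499 named genes with transcripts of that length. In OAS1Y 450 bases were 3′ UTR and 47 coding, and in OAS1Z 436 were 3′ UTR and 61 coding, with the stop codon as the rest. For these 4 genes the window lay within 1 exon, as in 60.0% of the named genes. In OAS2 it held 497 coding bases and reached over 5 exons. Of named genes, 8.44% had a window over 5 or more exons. The number of exons depends on the window: in OAS2 it was 3 in the last 300 bases and 7 in the last 1000.

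The 3 genes of the oligoadenylate system outside the family each had a 3′ UTR and a single transcript. Both traits are common: 79.8% of named genes had a 3′ UTR and 53.9% had a single transcript. AKAP7, an anchoring protein with a phosphodiesterase form that degrades oligoadenylates, had the longest, 944 bases. ABCE1, an ATP-binding protein that recycles ribosomes and also acts in this system, had 450 bases. PDE12, another phosphodiesterase that degrades oligoadenylates, had the shortest, 286 bases. ABCE1 was the only gene of the 4 lists on chromosome 17, at 13156554 to 13187394 and so far from the OAS genes.

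Of the wider interferon system, 4 lists with 49 symbols, 47 of them matched, gave 48 genes. A 3′ UTR was annotated in 40 (83.3%), close to the 79.8% of named genes. Their median was 483 bases. None of the 48 reached the 2422 bases of OAS1X. Among sensors and effectors of foreign RNA or DNA, 8 of 10 had one, from 130 bases in the RNA sensor gene IFIH1 to 1224 bases in TMEM173, which encodes STING. The RNA sensor gene DDX58 and ADAR, an editor of double-stranded RNA, had none. CGAS, the DNA sensor whose enzyme fold is related to that of the OAS proteins, had 531 bases in a model of 5 exons. Like every other gene searched, it shared no run of 3 internal coding exon lengths with an OAS gene. Such runs did not join OAS2 or OASL to the other members either.

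Among genes of the interferon receptor and its signalling, 9 of 11 had a 3′ UTR, from 67 bases in the transcription factor gene IRF3 to 1900 bases in the kinase gene TYK2. IRF7, a transcription factor that drives interferon genes, and SOCS1, an inhibitor of receptor signalling, had none. Among other interferon-stimulated genes, 20 of 24 had one, from 56 bases in HERC5, an ISG15 ligase, to 1816 bases in MX2, a dynamin-like antiviral GTPase. IFIT1, which binds viral RNA, IFI44, the nucleotide kinase gene CMPK2 and HERC6 had none. SAMD9 and BST2 found no gene by symbol and are not analysed here, and IFITM3 was carried by 2 genes. Of the 48 genes, 4 had no UTR at either end, as was also the case for OAS2: DDX58, SOCS1, IFIT1 and IFI44. Among named genes, 12.7% (2136 of 16808) had none, so this count does not stand above the background.

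**Figure D5:**
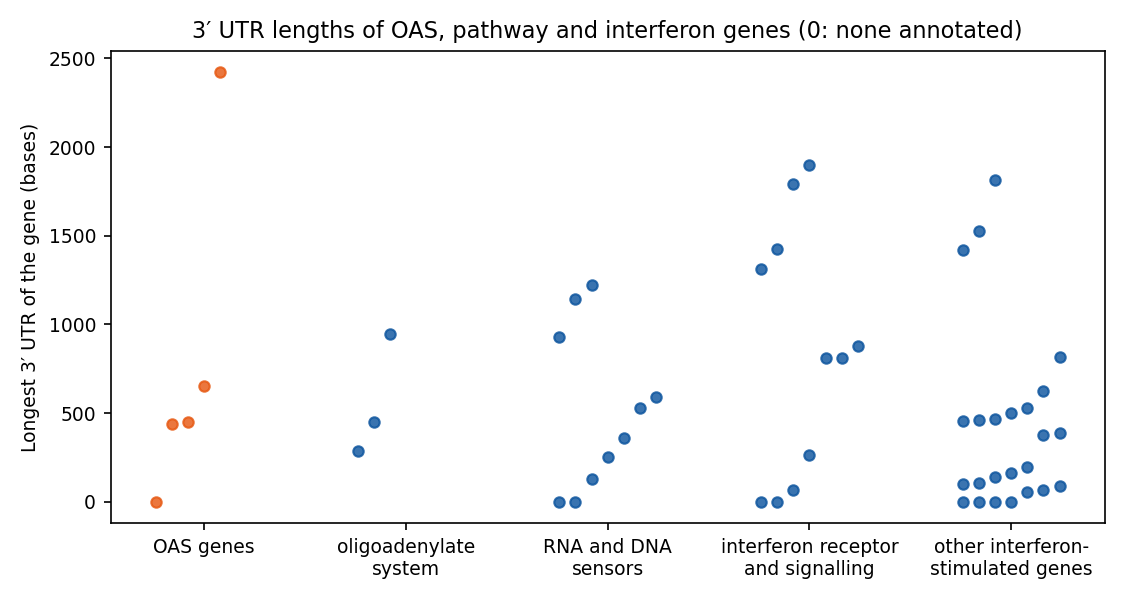
Longest 3′ UTR in bases (vertical axis) of each OAS gene (orange) and of each matched gene of the 4 lists (blue); 0 stands for none annotated, and the sideways spread only separates points. OAS1X, at 2422 bases, is the highest point of all, and OAS2 lies at 0 with 8 genes of the lists.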

How the data were processed

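The values came from a gene annotation that the authors deposited and that belongs to no sample: positions of features in bases on ARS-UCD1.2, a cattle assembly, per the file headers. The submitters' processing notes name STAR, Seurat and Cell Ranger 3. How the annotation was used on reindeer reads is not described in the sources used here. Tables of counts were not used here, so depth is not given, and antler and back libraries, grouped by tissue label, were not compared.

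Unless stated otherwise, exons and coding lengths (without the stop codon) are those of the transcript with the longest coding sequence. A UTR is the sum of its annotated segments, the longest over a gene's transcripts, and counts from 1 base. A gene is named if it carries a symbol that is not an identifier. OAS genes within 500000 bases form 1 group. Genes were matched by exact symbol or a listed alternative.

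No test was run: gene models are not replicates, and 5 related genes are not a sample. The members and lists were chosen with earlier results of these data known. The genes named were all members, their nearest neighbours and, per list, members not matched, without a 3′ UTR, or with the longest or shortest; some genes of the lists are not reported here and were left out of their counts. Others were named after their values were seen (PTPN11, AKAP7, ABCE1, CGAS, IFITM3, TMEM232 and ENSBTAG00000046887). The reader was tested on simulated data, an annotation of 2000 genes with 1 to 3 transcripts and some 3′ UTRs split by an intron, and the 3′ UTR, coding, exon and intron lengths came out as made for 2000. Planned protein identities and promoter motifs were not run, since no sequences were used here. Software was Python 3.11.15, NumPy 2.4.6, SciPy 1.17.1 and matplotlib 3.10.9.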

Additional observations from a re-analysis of the deposited data

How the results depend on the processing

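Of 52 alternatives, 38 left the value as reported or within 1.5 times (counts) or the 95% exact interval (the share over the lists). Many of the 38 could not have moved. For the 4 OAS genes with 1 transcript, any choice among transcripts returns the same model. Their unbroken 3′ UTRs also measure the same along the genome. The tally of 38 is therefore no measure of robustness. The number of OAS genes (5), of those with a 3′ UTR (4), of groups on the chromosome (2) and of pairs with a run of 3 equal exon lengths (3) came out the same under every alternative run for them. Among the 48 genes of the lists, the share with a 3′ UTR was 77.1% over 1 transcript per gene, that with the longest coding sequence. The searches outside the family depended on how much likeness was asked. With a run of 2 internal exon lengths instead of 3, 23 other genes were found, and with a run of 4, 0. With the OAS phases kept and the lengths allowed up to 40, 50 or 100 bases outside the OAS range, limits chosen after seeing the data, 1, 7 and 121 other genes were found; the 1 was TMEM232 on chromosome 7, with exons of 253, 179 and 248 bases. Counting the stop codon added 3 bases to each coding length. In the last 1000 bases, the 3′ UTR share was 45.0% in OAS1Y, 43.6% in OAS1Z and 65.0% in OASL, against 90.0%, 87.2% and 100% in the last 500; in OAS1X and OAS2 it did not move. Protein identity and promoter motifs were not run under any setting. No paired analysis was possible because no value belongs to a library. The annotation has no depth; what limits these values is which transcripts it holds, with 1 each for 4 of the 5 OAS genes.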
